A study of Mus musculus with 10 samples.

Results

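The hypoxia response genes are 10 named genes of the pathway by which cells answer low oxygen, taken by symbol from a table of 54532 genes measured in mouse kidney. All 10 were found, each on 1 row: the transcription factor genes Hif1a and Epas1 and the target genes Egln3, Bnip3, Ankrd37, Pdk1, Slc2a1, Vegfa, Adm and Car9. Messenger RNA was sequenced from 5 kidneys labelled Padi4 knockout and 5 labelled wild type, all taken 10 days into unilateral ureteral obstruction, in which 1 ureter is blocked and its kidney becomes inflamed and fibrotic. Padi4 encodes peptidylarginine deiminase 4, an enzyme that citrullinates histones when neutrophils cast out their chromatin as traps. The labels give no age, sex or strain background, and do not say whether the deletion was made in all cells or whether each library came from 1 animal, so p-values measure only the spread between these libraries, which may be technical. No unobstructed kidney is among the samples, and whether obstruction itself moved these genes is not analysed here.

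Cells sense oxygen through prolyl hydroxylases that mark the alpha subunits of hypoxia-inducible factor (HIF) for destruction while oxygen is present. When oxygen falls, the alpha subunit is spared, pairs with its partner ARNT and switches on genes for glucose uptake, glycolysis, mitophagy, vessel growth and acid handling. HIF is regulated largely at the level of the protein, so the messenger RNA of Hif1a and Epas1 need not follow HIF activity. In the kidney, HIF-1 alpha is found mostly in tubule cells and HIF-2 alpha, the product of Epas1, mostly in endothelial and interstitial cells.

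Values were taken to be FPKM, reads scaled to gene length and library size. The authors put the libraries on one scale by a size factor for each, in place of its total of reads. The reads behind the values could be recovered and numbered 15002922 to 16886945 per library. Padi4 itself had 9 to 43 reads in the knockout libraries and 6 to 47 in the wild-type libraries. These ranges overlap, knockout 3 having more than 4 of 5 wild-type libraries, and the whole-gene value does not show whether reads fell in the deleted part, so Padi4 does not check the labels. Knockout and wild type below are the groups as labelled. Kidney markers were present in each library, the summed level of 9 proximal tubule markers running from 724.0 to 1158 FPKM in knockout and from 529.7 to 1847 FPKM in wild-type kidneys. Wild-type 1 stood apart on the first principal component of the most variable genes, at 22.8 where the other 9 libraries lay between -11.4 and 6.18, and 8.11% of its reads were mitochondrial where the others had 3.18% to 5.79%.

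None of the 10 genes differed between the genotypes beyond the spread of the libraries. The 9 genes that averaged 1 FPKM or more were tested with limma on log2(FPKM + 1). At a Benjamini-Hochberg adjusted p of 0.05, 0 of 9 passed, beside 0% of all 13435 genes tested. At an unadjusted p under 0.05, the count was 0 of 9, beside 544 of all genes tested (4.05%). With limma-voom on the recovered reads, 0 of 9 passed by either measure, and 529 of all genes had an unadjusted p under 0.05. Of the 9, the log2 difference of knockout minus wild type was above 0 for 4 and below 0 for 5, beside 48.4% of all genes tested below 0. The median of the 9 was -0.04, where the median over all genes tested was 0.0051. In all 10 genes the 2 groups overlapped, where they did not for 0.744% of all genes tested. In bulk tissue, fewer cells of a type and less RNA per cell cannot be told apart.

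**Figure D1:**
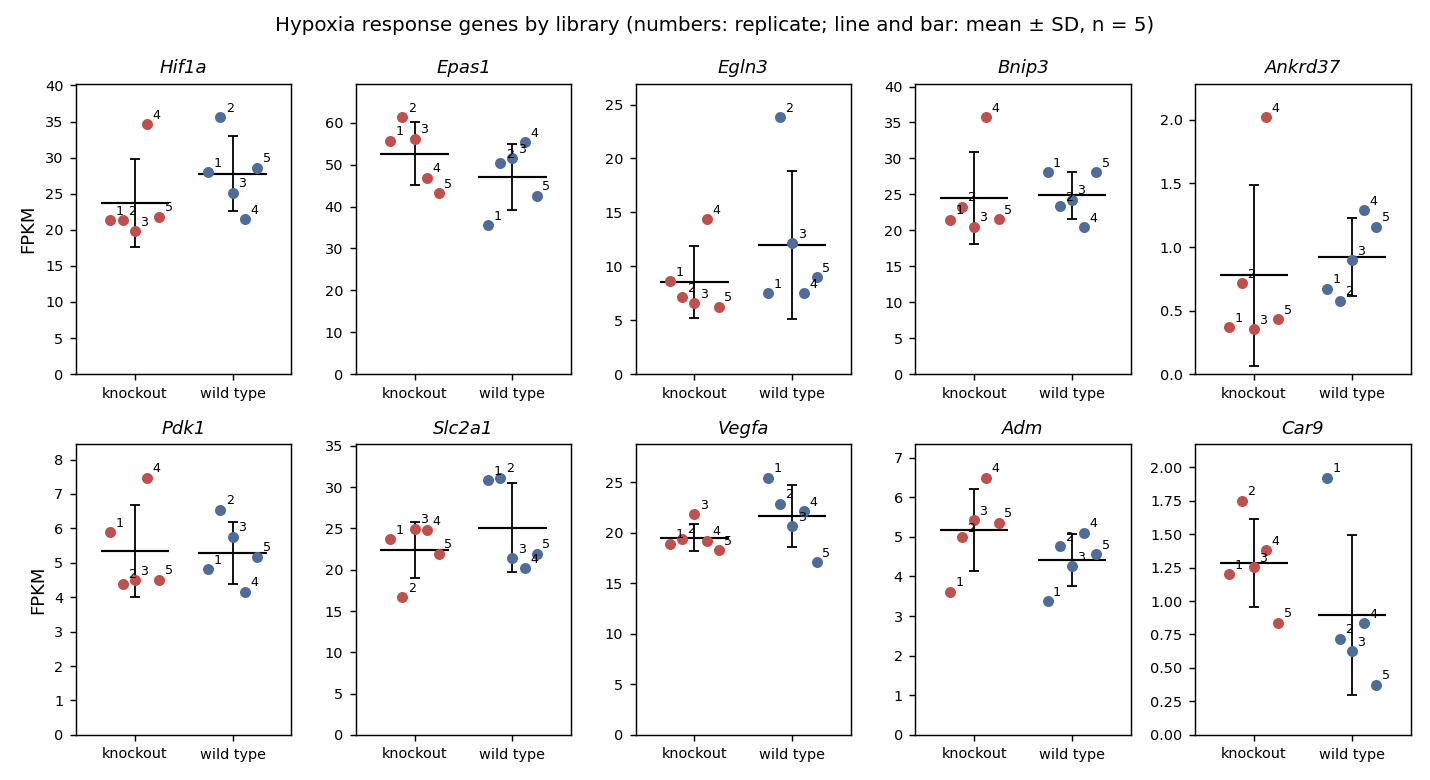
FPKM of the 10 hypoxia response genes in each library, knockout left and wild type right, with the replicate number beside each point and the mean ± SD (n = 5) in black; each axis starts at 0. The groups overlap in every panel, and knockout 4 is the highest knockout library for Hif1a, Egln3, Bnip3, Ankrd37, Pdk1 and Adm.

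**Figure D2:**
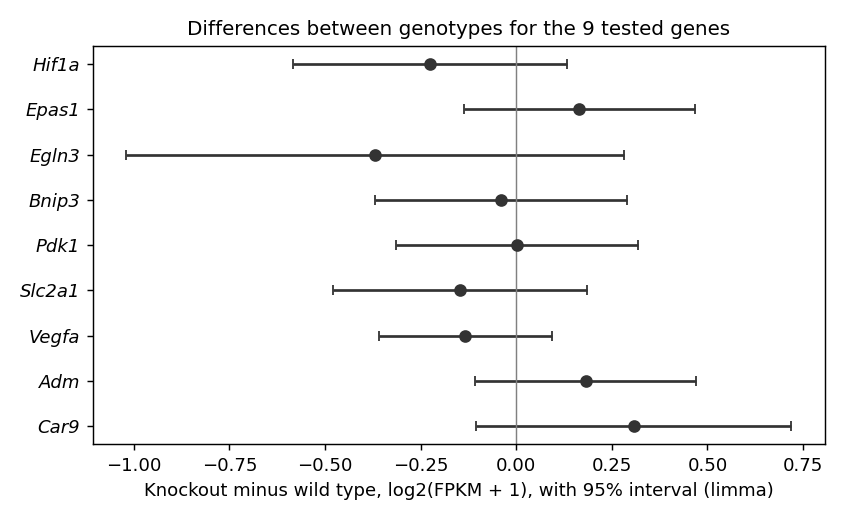
Mean log2(FPKM + 1) in knockout less that in wild type for the 9 tested genes, with the 95% interval from limma (n = 5 and 5). Every interval includes 0, the widest being that of Egln3, from -1.02 to 0.28.

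Per length of gene, Epas1 was the most abundant of the 10, with a mean of 49.8 FPKM over all libraries. Hif1a, Bnip3, Slc2a1 and Vegfa followed at 25.8, 24.7, 23.8 and 20.6 FPKM, and the values of each overlapped those of the next. Egln3 averaged 10.3 FPKM, and Pdk1 and Adm, close to each other, 5.32 and 4.79 FPKM. Car9 at 1.09 FPKM and Ankrd37 at 0.848 FPKM lay at the bottom, and Ankrd37 was below the filter. Relative to their means the library-to-library spread was widest in Ankrd37, Egln3 and Car9, with coefficients of variation over the 10 libraries of 61.5%, 52.7% and 45.9%, against a median of 16.0% over all genes tested. Vegfa was the steadiest of the 10, at 12.2%.

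Hif1a (ENSMUSG00000021109) encodes the oxygen-labile HIF-1 alpha and sits at 73901375 to 73947530 on chromosome 12, plus strand (GRCm38). It measured 21.3, 21.3, 19.8, 34.6 and 21.8 FPKM in knockout kidneys 1 to 5, against 27.9, 35.6, 25.1, 21.5 and 28.6 FPKM in wild-type kidneys 1 to 5. Knockout 4 stood above the rest of its group, which reached 21.8 FPKM, and of the other 4, 3 were below every wild-type kidney. The means were 23.8 FPKM ± 6.1 in knockout and 27.8 FPKM ± 5.22 in wild-type kidneys (SD, n = 5 each), and on the log2 scale they differed by -0.23 with an SE of 0.164 (limma adjusted p = 0.976, exact two-sided permutation p = 0.238). Without knockout 4 the log2 difference was -0.36 (limma adjusted p = 0.511, unadjusted p = 0.0161), and without wild-type 2 it was -0.13 (limma adjusted p = 0.996). Knockout 4 was the highest knockout kidney, so leaving it out was bound to widen the difference. In the fit without it, 1245 of all 13435 genes tested had an unadjusted p under 0.05, where 544 had with all libraries.

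Epas1 (ENSMUSG00000024140) is the gene of HIF-2 alpha, and sits at 86753907 to 86833410 on chromosome 17, plus strand. It measured 55.7, 61.4, 56.2, 46.8 and 43.2 FPKM in knockout kidneys, against 35.5, 50.3, 51.5, 55.3 and 42.6 FPKM in wild-type kidneys. Knockout 2, 3 and 1 were the highest of all libraries, wild-type 1 was the lowest, and the groups overlapped over the rest. The means were 52.7 FPKM ± 7.41 in knockout and 47.0 FPKM ± 7.96 in wild-type kidneys (SD, n = 5 each), and on the log2 scale they differed by 0.17 with an SE of 0.138 (limma adjusted p = 0.976, exact permutation p = 0.262). Without wild-type 1 that difference was 0.07, and without knockout 5 it was 0.23. The 8 endothelial markers, a cell type rich in Epas1, summed to 198.7 to 243.7 FPKM in knockout and 181.9 to 262.5 FPKM in wild-type kidneys, and their part in the Epas1 values was not tested. Because Epas1 had a higher and Hif1a a lower mean in knockout kidneys, their ratio was examined after the values were seen. Epas1 over Hif1a was 2.61, 2.88, 2.84, 1.35 and 1.98 in knockout kidneys, against 1.27, 1.41, 2.05, 2.58 and 1.49 in wild-type kidneys. The ratio did not differ beyond the spread (log2 difference 0.40, exact permutation p = 0.183).

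Egln3 (ENSMUSG00000035105) encodes prolyl hydroxylase 3, one of the enzymes that mark HIF alpha and itself a HIF target, and sits at 54178981 to 54203860 on chromosome 12, minus strand. It measured 8.6, 7.12, 6.55, 14.3 and 6.25 FPKM in knockout kidneys, against 7.51, 23.8, 12.1, 7.51 and 8.97 FPKM in wild-type kidneys. Wild-type 2 was far above every other library, knockout 4 and wild-type 3 came next, and the remaining libraries of both genotypes lay between 6.25 and 8.97 FPKM. The means of 8.57 FPKM ± 3.35 in knockout and 12.0 FPKM ± 6.89 in wild-type kidneys (SD, n = 5 each) differed by -0.37 on the log2 scale with an SE of 0.297 (limma adjusted p = 0.976, exact permutation p = 0.310). It depended on single libraries, at -0.10 without wild-type 2 and -0.55 without knockout 4.

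Bnip3 (ENSMUSG00000078566) is a mitochondrial receptor for mitophagy, and sits at 138890836 to 138909519 on chromosome 7, minus strand. It measured 21.5, 23.3, 20.5, 35.8 and 21.5 FPKM in knockout kidneys, against 28.1, 23.4, 24.3, 20.4 and 28.1 FPKM in wild-type kidneys. Knockout 4 was the highest of all libraries, while the other 4 knockout kidneys stayed between 20.5 and 23.3 FPKM, in the lower part of the wild-type range. The group means were nearly equal, 24.5 FPKM ± 6.36 in knockout and 24.9 FPKM ± 3.28 in wild-type kidneys (SD, n = 5 each), and differed by -0.04 on the log2 scale with an SE of 0.151 (limma adjusted p = 0.991, exact permutation p = 0.810).

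Ankrd37 (ENSMUSG00000050914) is an ankyrin repeat protein gene known as a HIF-1 target, and sits at 45996902 to 46005707 on chromosome 8, minus strand. It measured 0.368, 0.715, 0.352, 2.02 and 0.431 FPKM in knockout kidneys, against 0.671, 0.579, 0.896, 1.29 and 1.16 FPKM in wild-type kidneys. The highest of the 10 was knockout 4, and the lowest 3 were knockout 1, 3 and 5. These levels rest on only 9 to 48 reads per library, and Ufsp2 on the opposite strand overlaps the gene with 435 to 649 reads, so reads of the 2 genes cannot be told apart where strand was not used. The means were 0.777 FPKM ± 0.711 in knockout and 0.919 FPKM ± 0.306 in wild-type kidneys (SD, n = 5 each), and on the log2 scale they differed by -0.17 (exact permutation p = 0.516). Leaving out 1 library at a time gave values from -0.38 without knockout 4 (exact permutation p = 0.0476) to -0.09 without knockout 3 (exact permutation p = 0.770). As knockout 4 was the highest library, leaving it out was bound to widen the difference. A pseudocount of 0.1 gave -0.45 (exact permutation p = 0.365).

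Neither metabolic target passed the threshold. Pdk1 (ENSMUSG00000006494) is a kinase that shuts pyruvate dehydrogenase and so keeps pyruvate from being burned in mitochondria, and sits at 71873224 to 71903858 on chromosome 2, plus strand. It measured 5.89, 4.39, 4.49, 7.47 and 4.51 FPKM in knockout kidneys, against 4.82, 6.54, 5.76, 4.16 and 5.18 FPKM in wild-type kidneys. Knockout 4 and wild-type 2 were the highest of all, and the log2 difference was 0.0022 with an SE of 0.145 (limma adjusted p = 0.998, exact permutation p = 0.984), with a 95% interval from -0.31 to 0.32. Its sign was not stable, at -0.0085 with upper quartile scaling.

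Slc2a1 (ENSMUSG00000028645) is the gene of the glucose transporter GLUT1, and sits at 119108711 to 119137983 on chromosome 4, plus strand, 21.6 Mb from Padi4. It measured 23.7, 16.7, 24.95, 24.8 and 21.9 FPKM in knockout kidneys, against 30.9, 31.1, 21.4, 20.2 and 21.9 FPKM in wild-type kidneys. Wild-type 1 and 2 were the highest and knockout 2 the lowest, with the other 7 libraries between 20.2 and 24.95 FPKM. The log2 difference was -0.15 with an SE of 0.152 (limma adjusted p = 0.976, exact permutation p = 0.373). It was -0.05 without knockout 2, -0.07 without either wild-type 1 or wild-type 2, and -0.22 without wild-type 4.

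Among the secreted factors, Vegfa had lower and Adm higher mean levels in knockout kidneys, neither beyond the spread. Vegfa (ENSMUSG00000023951) is the main growth factor of blood vessels and in the healthy kidney made by podocytes and tubules, and sits at 46016993 to 46032369 on chromosome 17, minus strand. It measured 18.9, 19.4, 21.8, 19.2 and 18.3 FPKM in knockout kidneys, against 25.5, 22.9, 20.6, 22.2 and 17.1 FPKM in wild-type kidneys. All 5 knockout kidneys were below the wild-type median of 22.2 FPKM, yet the lowest of all was wild-type 5. The means were 19.5 FPKM ± 1.35 in knockout and 21.7 FPKM ± 3.08 in wild-type kidneys (SD, n = 5 each), and on the log2 scale they differed by -0.13 with an SE of 0.104 (limma adjusted p = 0.976, exact permutation p = 0.214). Leaving out wild-type 1 gave -0.07, and leaving out wild-type 5 gave -0.21 (limma adjusted p = 0.999, unadjusted p = 0.0407). In the fit without wild-type 5, 479 of all 13435 genes tested had an unadjusted p under 0.05. All 6 podocyte markers averaged lower in knockout kidneys, none past the threshold. They summed to 103.8 to 108.8 FPKM in knockout and 103.5 to 136.8 FPKM in wild-type kidneys. Of 9 proximal tubule markers 3 averaged lower, and of 8 markers of the loop, distal tubule and collecting duct 4 did. Over all genes tested, 48.4% had lower values. The part of podocytes or tubules in the Vegfa values was not tested.

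Adm (ENSMUSG00000030790) encodes adrenomedullin, a peptide that widens vessels, and sits at 110627661 to 110629820 on chromosome 7, plus strand. It measured 3.61, 4.98, 5.42, 6.49 and 5.36 FPKM in knockout kidneys, against 3.37, 4.76, 4.26, 5.1 and 4.56 FPKM in wild-type kidneys. In 4 of 5 knockout kidneys it was above the wild-type median, and the lowest 2 libraries were wild-type 1 and knockout 1. The log2 difference was 0.18 with an SE of 0.132 (limma adjusted p = 0.976, exact permutation p = 0.238). It ran from 0.11 without wild-type 1 (limma unadjusted p = 0.415) to 0.28 without knockout 1 (limma adjusted p = 0.999, unadjusted p = 0.0317). In the fit without knockout 1, 364 of all 13435 genes tested had an unadjusted p under 0.05. Each library held 74 to 162 reads of Adm.

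Car9 (ENSMUSG00000028463) is the membrane carbonic anhydrase IX that handles acid outside the cell, and sits at 43506966 to 43513729 on chromosome 4, plus strand, 97.2 Mb from Padi4. It measured 1.2, 1.75, 1.25, 1.38 and 0.837 FPKM in knockout kidneys, against 1.92, 0.718, 0.624, 0.836 and 0.374 FPKM in wild-type kidneys. Wild-type 1 was the highest of all, the other 4 wild-type kidneys were at or below 0.836 FPKM, and 4 of 5 knockout kidneys were at or above 1.2 FPKM. The means were 1.28 FPKM ± 0.33 in knockout and 0.895 FPKM ± 0.598 in wild-type kidneys (SD, n = 5 each), and on the log2 scale they differed by 0.31 with an SE of 0.189 (limma adjusted p = 0.976, exact permutation p = 0.167). Without wild-type 1 it was 0.48 (limma adjusted p = 0.680, unadjusted p = 0.00592), and without wild-type 5 it was 0.20 (limma adjusted p = 0.999, unadjusted p = 0.297). In the fit without wild-type 1, the highest library, 916 of all 13435 genes tested had an unadjusted p under 0.05. Only 14 to 66 reads per library stand behind the Car9 values, the gene passed the filter through its knockout level, and the antisense gene Gm12454 overlaps it with 8 to 24 reads. With limma-voom on the reads, which does not shrink low genes as the pseudocount does, the difference was 0.72 (adjusted p = 0.967).

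Several of these genes were high in the same libraries. Knockout 4 was the highest knockout kidney for 5 of the 9 tested genes and also for Ankrd37, where it was so for 30.3% of all genes tested. In that library Egln3 was 0.74, Bnip3 0.56, Hif1a 0.55 and Pdk1 0.44 above the group mean of log2(FPKM + 1), higher than 99.5%, 98.8%, 98.8% and 97.4% of all genes tested in the same library. Egln3, Hif1a and Pdk1 were also highest in wild-type 2 among the wild-type kidneys, 1.07, 0.37 and 0.27 above the group mean. These 2 libraries were picked because genes of the 10 were high in them, so the shares describe them and test nothing. To be highest in both held for 3 of 9 tested genes, beside 6.61% of all genes tested. Bnip3 and Ankrd37 were high in knockout 4 but in wild-type 2 lay 0.07 and 0.27 below the mean, and Epas1 and Vegfa were not raised in knockout 4. In both libraries the sum of proximal tubule markers was the lowest of its genotype, at 724.0 FPKM in knockout 4 and 529.7 FPKM in wild-type 2. So was the sum of 6 fat cell markers, at 11.6 FPKM in knockout 4 and 13.0 FPKM in wild-type 2. The part of either cell type in the shared pattern was not tested.

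**Figure D3:**
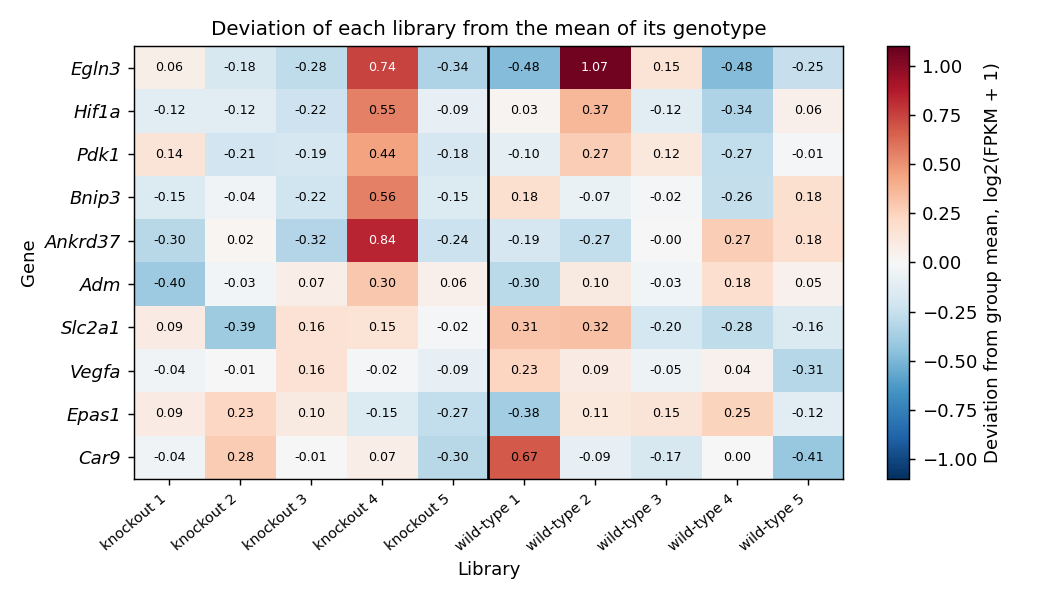
Deviation of each library from the mean of its own genotype on the log2(FPKM + 1) scale, for the 10 genes (rows) and 10 libraries (columns, knockout left). Egln3, Hif1a and Pdk1 are above the mean in both knockout 4 and wild-type 2, Bnip3 and Ankrd37 in knockout 4 but not in wild-type 2, and Car9 is most raised in wild-type 1.

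Across the 10 libraries, Pearson's r was computed for all 45 pairs of the genes, and 0 pairs passed a Benjamini-Hochberg adjusted permutation p of 0.05. While 6 had an unadjusted p under 0.05, the share over pairs of all genes tested was not computed, so that count is a description. Hif1a and Egln3 had r = 0.83 (permutation p = 0.00304, adjusted p = 0.0882) and Spearman's rho = 0.71 (permutation p = 0.0257, adjusted p = 0.289). Without knockout 4 and wild-type 2, the libraries farthest from the median of Hif1a, r was 0.49. The relation may rest on them, but leaving them out also narrows the range of Hif1a, so this cannot settle it. Within genotype, with these libraries kept, r was 0.93 in knockout and 0.76 in wild-type kidneys. Egln3 and Pdk1 had r = 0.83 (permutation p = 0.00392, adjusted p = 0.0882) and rho = 0.78 (permutation p = 0.0102, adjusted p = 0.282). That pair kept r = 0.78 without the same 2 libraries and had r = 0.97 within knockout and 0.91 within wild-type kidneys. Hif1a and Pdk1 had r = 0.77 (permutation p = 0.00934, adjusted p = 0.117) and rho = 0.62 (permutation p = 0.0596, adjusted p = 0.425). Without the same libraries r was 0.37, so this relation too may rest on them, with the same limit. Within genotype, with them kept, r was 0.86 in knockout and 0.81 in wild-type kidneys. Hif1a and Bnip3 had r = 0.75 (permutation p = 0.0104, adjusted p = 0.117) and rho = 0.77 (permutation p = 0.0125, adjusted p = 0.282), with r = 0.95 without knockout 4 and wild-type 2. Within genotype that r was 0.99 in knockout and 0.41 in wild-type kidneys. Bnip3 and Ankrd37 had r = 0.71 (permutation p = 0.0215, adjusted p = 0.1935), with 0.99 within knockout and -0.30 within wild-type kidneys. Bnip3 and Pdk1 had r = 0.63 (permutation p = 0.0494, adjusted p = 0.371), with 0.83 within knockout and 0.18 within wild-type kidneys.

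The promoters of the 5 genes farthest above the group mean in knockout 4 are printed with that of Car9, which was 0.07 above it there, because HIF binds a short core, ACGTG or GCGTG, in the genes it controls. Windows run from 250 bases before to 50 bases after the RefSeq start in GRCm38.p6, on the strand of the gene, with capitals marking either core on either strand.
Egln3, chr12:54203825-54204124, minus strand: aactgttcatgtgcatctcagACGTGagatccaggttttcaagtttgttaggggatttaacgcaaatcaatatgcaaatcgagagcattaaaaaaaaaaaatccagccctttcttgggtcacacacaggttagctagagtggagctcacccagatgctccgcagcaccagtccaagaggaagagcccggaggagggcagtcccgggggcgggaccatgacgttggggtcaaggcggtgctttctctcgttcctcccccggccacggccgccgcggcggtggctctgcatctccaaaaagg
Pdk1, chr2:71872974-71873273, plus strand: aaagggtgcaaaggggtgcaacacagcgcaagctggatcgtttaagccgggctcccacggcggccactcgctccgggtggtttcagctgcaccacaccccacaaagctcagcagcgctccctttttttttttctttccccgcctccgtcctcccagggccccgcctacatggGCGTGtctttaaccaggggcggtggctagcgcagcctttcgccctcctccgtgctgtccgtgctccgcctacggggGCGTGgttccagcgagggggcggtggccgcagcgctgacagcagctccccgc
Bnip3, chr7:138909457-138909756, minus strand: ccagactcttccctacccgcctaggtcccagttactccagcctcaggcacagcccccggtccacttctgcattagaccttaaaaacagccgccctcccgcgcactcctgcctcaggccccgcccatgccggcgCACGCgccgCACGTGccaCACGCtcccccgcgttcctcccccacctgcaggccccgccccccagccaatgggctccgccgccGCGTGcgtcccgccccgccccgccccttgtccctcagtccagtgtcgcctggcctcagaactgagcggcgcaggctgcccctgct
Ankrd37, chr8:45999801-46000100, minus strand: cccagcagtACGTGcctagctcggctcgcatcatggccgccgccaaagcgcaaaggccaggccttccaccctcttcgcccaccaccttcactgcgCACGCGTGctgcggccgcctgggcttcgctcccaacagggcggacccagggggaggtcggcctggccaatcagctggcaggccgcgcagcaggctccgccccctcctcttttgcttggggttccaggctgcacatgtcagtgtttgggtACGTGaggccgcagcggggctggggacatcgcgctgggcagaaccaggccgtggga
Hif1a, chr12:73907617-73907916, plus strand: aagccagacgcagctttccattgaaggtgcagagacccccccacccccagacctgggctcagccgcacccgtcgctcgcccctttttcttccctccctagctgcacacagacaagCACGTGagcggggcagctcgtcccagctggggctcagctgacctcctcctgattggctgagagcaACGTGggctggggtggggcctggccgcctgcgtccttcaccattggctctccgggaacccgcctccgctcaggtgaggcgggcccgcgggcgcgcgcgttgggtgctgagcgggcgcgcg
Car9, chr4:43506776-43507075, plus strand: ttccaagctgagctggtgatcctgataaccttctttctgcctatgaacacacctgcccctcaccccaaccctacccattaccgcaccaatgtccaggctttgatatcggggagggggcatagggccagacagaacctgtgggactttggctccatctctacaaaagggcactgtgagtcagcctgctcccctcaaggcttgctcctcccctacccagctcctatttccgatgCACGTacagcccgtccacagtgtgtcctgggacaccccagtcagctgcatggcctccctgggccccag
The window of Bnip3 held a palindromic CACGTG, in which ACGTG reads on both strands and which is also the E-box of other factors, 108 bases before the start, with 3 GCGTG around it. Ankrd37 carried ACGTG at 241 and 6 bases before the start, and 2 overlapping GCGTG. Hif1a also held a CACGTG and a further ACGTG 70 bases before its start, Pdk1 2 GCGTG, Egln3 a single ACGTG and Car9 a single ACGTG 18 bases before its start. Of the 9 genes with a window (Epas1 was not among them), 6 held ACGTG and 5 GCGTG, where 19.6% and 32.4% of all 32851 windows in the table did. Either core was in 8 of the 9, Vegfa being the exception, and in 43.8% of all windows. Sequence outside the windows was not searched. The windows of the 9 genes held from 54.7% G or C in Egln3 to 71.7% in Bnip3, and the windows of the table were not matched for it. A match in these letters is no measurement of binding, and the starts of Hif1a and Ankrd37 lie 6492 and 5857 bases inside the gene as the deposited table bounds it.

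The other genes of the HIF pathway likewise did not pass. Of 61 listed by role, 57 passed the filter, and 0 passed the adjusted threshold in either direction. At an unadjusted p under 0.05 there was 1, Flt1, with lower values in knockout kidneys, beside 2% of all genes tested in that direction. Values were higher in knockout kidneys for 23 and lower for 34, beside 48.4% of all genes tested with lower values, and the median log2 difference was -0.03. The 4 below the filter were Hif3a, the placental growth factor gene Pgf, Slc2a3 and Epo, the erythropoietin gene, which had 2 reads in all knockout and 7 reads in all wild-type kidneys.

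Flt1, a VEGF receptor gene that in its soluble form also traps the ligand, measured 4.6, 4.46, 4.6, 4.94 and 4.11 FPKM in knockout kidneys, against 5.85, 8.68, 5.77, 5.16 and 5.13 FPKM in wild-type kidneys. It was 1 of 57 whose groups did not overlap, beside 0.744% of all genes tested, and all 5 knockout kidneys were lower than every wild-type kidney. The log2 difference was -0.34 with an SE of 0.121 (limma adjusted p = 0.976, unadjusted p = 0.016, exact permutation p = 0.00794, the smallest it can give), and -0.22 without wild-type 2. Endothelial markers averaged lower in knockout kidneys for 3 of 8, none past the threshold. Of 7 neutrophil markers 3 were tested, all 3 averaged lower and none passed. The 7, most of them below the filter, summed to 5.87 to 12.7 FPKM in knockout and 12.9 to 18.2 FPKM in wild-type kidneys. The highest knockout sum was just below the lowest wild-type sum. Of single genes tested 0.744% did not overlap, but no such share was computed for sums of several genes. All 6 tested T and natural killer cell markers and all 6 podocyte markers also averaged lower, and 1 of 7 macrophage markers did. So did all 4 tested erythroid markers and 2 of 6 urothelium markers. For fibroblast and pericyte markers it was 0 of 7, and for tested fat cell markers 0 of 4. Over all genes tested, 48.4% had lower values. The part of any cell type in the Flt1 values was not tested. Kdr, the main signalling receptor of VEGF, averaged 7.13 FPKM in knockout and 8.2 FPKM in wild-type kidneys, with a log2 difference of -0.19. Ramp3, which with Calcrl forms an adrenomedullin receptor, averaged 23.5 FPKM ± 2.72 in knockout and 18.7 FPKM ± 4.85 in wild-type kidneys (SD, n = 5 each), and on the log2 scale they differed by 0.35 (limma adjusted p = 0.976). Edn1, the gene of the vessel-narrowing endothelin 1, differed by -0.31, Calcrl by -0.08 and Ramp2 by 0.06.

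Among HIF subunits and partners, knockout kidneys had higher values for 1 of 5 tested genes and lower for 4, where 48.4% of all genes tested had lower values. The coactivator genes Ep300 and Crebbp differed by -0.23 and -0.16, and Arnt by -0.08. Of 8 genes for hydroxylation and degradation, 6 had higher values. Egln2, which encodes prolyl hydroxylase 1, averaged 26.7 FPKM ± 5.4 in knockout and 22.2 FPKM ± 4.49 in wild-type kidneys (SD, n = 5 each), and on the log2 scale they differed by 0.25, Egln1 differed by 0.07 and the asparagine hydroxylase gene Hif1an by -0.10.

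In glucose and pyruvate metabolism, knockout kidneys had higher values for 3 of 11 tested genes and lower for 8, with a median of -0.03. Lower values were found for 48.4% of all genes tested. Hk2, an inducible hexokinase gene, averaged 3.52 FPKM ± 0.739 in knockout and 5.41 FPKM ± 2.71 in wild-type kidneys (SD, n = 5 each). Its log2 difference of -0.44 became -0.22 without wild-type 2, where it measured 10.2 FPKM. Pfkfb3, which sets the pace of glycolysis, differed by -0.30, and by -0.12 without wild-type 2. Pgk1 differed by -0.10. Of 6 mitophagy and stress genes, 5 had log2 differences above 0, but for Ddit4 and Fundc1, at 0.0096 and 0.0046, the mean FPKM was lower in knockout kidneys. Among the rest were Bnip3l, a relative of Bnip3, at 0.09, Fam162a at 0.06 and Ccng2 at -0.08. Of the acid-base targets, the carbonic anhydrase gene Car12 was at 0.08. Of 18 other targets, 4 had higher and 14 lower values with a median of -0.16. Wild-type 2 was the highest wild-type kidney for 8 of the 18, beside 23.2% of all genes tested. Among the 18, the adenosine-making enzyme gene Nt5e was at -0.24 (-0.10 without wild-type 1). The histone demethylase gene Kdm3a and the collagen prolyl hydroxylase gene P4ha1 were each at -0.17, and at -0.10 without wild-type 2. The smallest adjusted p of all 57 was 0.976.

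**Figure D4:**
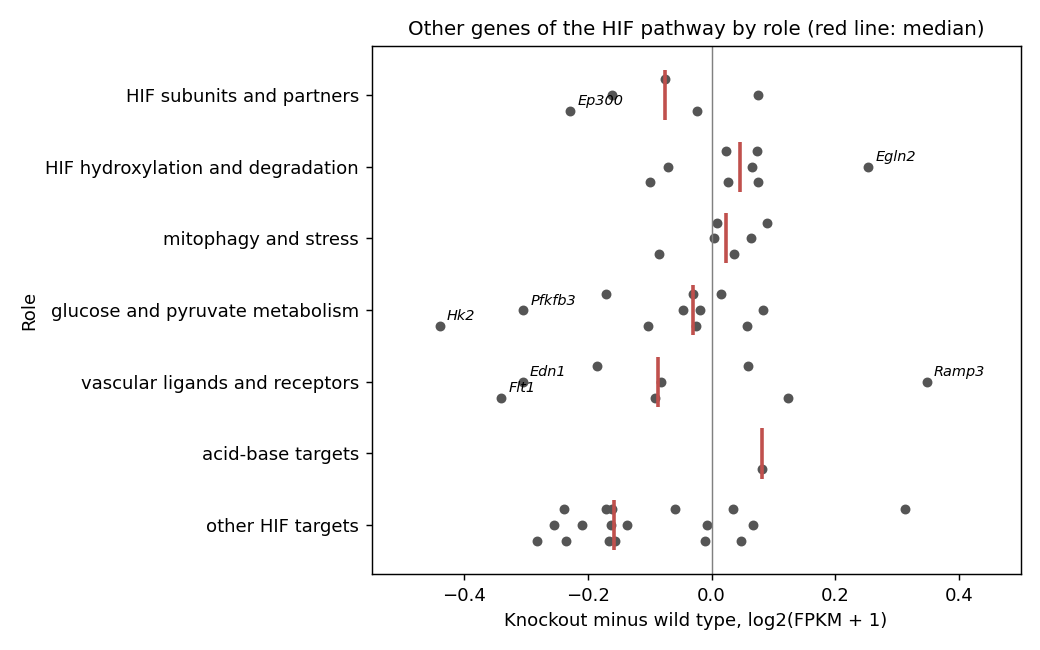
Mean log2(FPKM + 1) in knockout less that in wild type for the 57 tested genes of the HIF pathway outside the 10, by role, with the median of each role as a red line. Most points lie within 0.3 of 0, Hk2 is lowest at -0.44 and Ramp3 highest at 0.35, and none passed the threshold.

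Being highest in both knockout 4 and wild-type 2, as Egln3, Hif1a and Pdk1 were, held for 13 of these 57 genes, or 22.8%, beside 6.61% of all genes tested. Because the 2 libraries were picked for high values of the 10 genes, this share too is a description and tests nothing. The 13 included 3 of 5 subunit and partner genes, Arnt, Ep300 and Crebbp, and Flt1 and Pfkfb3. None of the 8 genes for hydroxylation and degradation and none of the 6 for mitophagy and stress was among them, though 3 of each were highest of the knockout kidneys in knockout 4. The genes most like Egln3 over the 10 libraries outside these lists, by Pearson's r on log2(FPKM + 1), were Phactr1, Eml4 and Dock1, with r = 0.98, 0.96 and 0.96. For Hif1a they were Dennd4a, Ctbp2 and Pdzd8, each with r = 0.97, and for Car9 Ndufb4c, Trim37 and Rnf149, with r = 0.92, 0.91 and 0.89. Each gene named for Egln3 and Hif1a was itself the highest in knockout 4 among knockout and in wild-type 2 among wild-type kidneys. Because they were picked for likeness to genes with that pattern, this was largely set by the choice. No gene named for Car9 had the pattern, and Car9 itself did not. Over all 13435 genes tested, 888 had it. The genes named for likeness are the highest of 13435 genes compared from the same libraries and are given as a description.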

How the data were processed

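Messenger RNA of 10 obstructed mouse kidneys was sequenced, with group and replicate number taken from the titles. TRIzol extraction and an mRNA library kit were used, per the labels' protocols, and HISAT2 2.0.5 is the tool named, per the submitters' processing notes. For counter, strand setting, annotation and build, the sources used here give nothing. The deposited values carry no unit and were taken to be the authors' FPKM: multiplied by the listed gene length and divided by 1 step per library, 100% of values above 0 were whole within 0.01 reads. The steps show that the authors had scaled the libraries by median-of-ratios size factors. Gene coordinates matched GRCm38 (GENCODE M21) for 98.3% of shared identifiers, and for 9 of the 10 genes, Epas1 differing at its start.

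The design named limma for FPKM. Limma 3.58.1 in R 4.3.3 was fitted with a variance trend on log2(FPKM + 1) to the 13435 genes that averaged 1 FPKM or more, with genotype as the only term and Benjamini-Hochberg adjustment over all of them. Differences are knockout minus wild type on that scale, where the pseudocount shrinks differences of low genes. Exact permutation tests of all 10 libraries were two-sided over all 252 splits, with a smallest possible p of 0.00794. Those of Ankrd37 with 1 library left out had fewer splits. Permutation tests of correlations drew 100000 resamples. Ankrd37, below the filter, had the exact test as its main test. The fit was tested on simulated reads. The genes and lists were chosen with earlier results of these data known. From each role, up to 3 pathway genes with the smallest p were named, and, for the 3 of the 9 tested genes with the largest SD of log2(FPKM + 1), those with the highest r; Kdr, Calcrl, Ramp2, Ddit4, Fundc1 and the genes below the filter were added after their values were seen. Alternatives were upper quartile scaling, scaling to library totals, limma-voom, no filter, a mean of at least 5 FPKM, the replicate number as a block, a pseudocount of 0.1, no variance trend, an adjusted threshold of 0.1 and each library left out. 1 listed pathway gene is not reported here. Ero1a was read from the row Ero1l, and of 2 rows of Aldoa the more abundant was used.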

Additional observations from a re-analysis of the deposited data

Results flagged for a closer look

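Of 20 groups of 5 values, 1 for each gene and genotype, 4 had 1 library well outside the range of the rest, where chance alone does so in about 1 group in 20. Knockout 4 gave 3 of them: 34.6 FPKM for Hif1a, where the other 4 knockout kidneys had 19.8 to 21.8 FPKM, 35.8 FPKM for Bnip3, where the others had 20.5 to 23.3 FPKM, and 2.02 FPKM for Ankrd37, where the others had 0.352 to 0.715 FPKM. The fourth was Egln3 in wild-type 2, at 23.8 FPKM where the other 4 wild-type kidneys had 7.51 to 12.1 FPKM. The 3 values of knockout 4 come from 1 library.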

How the results depend on the processing

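No gene passed an adjusted p of 0.05 under any of the 18 other fits or passed at 0.1 with all libraries, among the 10 genes, the 57 pathway genes or all genes tested. The smallest adjusted p of any named gene was 0.511, without knockout 4. The median difference of the tested genes of the 10 ranged from -0.133 at a mean of at least 5 FPKM to 0.014 without knockout 3. Of 29 named genes, 24 kept their direction in each fit run for them, 14 fits for Ankrd37 and 17 or 18 for the others, and the genes named after their values were seen were not refitted. Pdk1 turned to -0.0034 with limma-voom and -0.0085 with upper quartile scaling. Without 1 library the differences ran from -0.108 to 0.0705 for Pdk1, -0.179 to 0.014 for Bnip3, -0.0288 to 0.14 for Bnip3l, -0.00511 to 0.195 for Car12 and -0.161 to 0.0123 for Pgk1. Those of Ramp3 ran from 0.209 to 0.438, Edn1 from -0.421 to -0.164 and Egln2 from 0.16 to 0.394. The cause was not tested. Ankrd37 ran from -0.0904 without knockout 3 (exact permutation p = 0.770) to -0.381 without knockout 4 (exact permutation p = 0.0476). Knockout 4 was its highest library, so leaving that out was bound to widen the difference. With a pseudocount of 0.1 it was -0.447. Car9 differed by 0.617 with that pseudocount and Egln3 by -0.401.

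Same-numbered libraries did not deviate together (r from -0.344 to 0.306 for the 5 numbers), so the numbers were not read as pairs. With the replicate number as a block, 0 genes passed and 435 had an unadjusted p under 0.05, where 544 had without the block. That count was 308 without knockout 3, 364 without knockout 1, 916 without wild-type 1 and 1245 without knockout 4, and with other sets of genes it was 1096 of 27780 with no filter and 272 of 8470 at a mean of at least 5 FPKM. Depth limits Car9 and Ankrd37, with 14 to 66 and 9 to 48 reads per library.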
